A study of Mus musculus with 4 samples.

Results

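The collagen genes of the mouse first pharyngeal arch were examined in wild-type embryos and in embryos of the genotype Wnt1-Cre;pMes-Bmp4, called transgenic here. Members were all genes whose symbol has the form Col, a number, a and a number. The deposited table held 44 such genes among 52459, and 32 of them reached a mean of at least 10 normalized reads over the 4 libraries and were compared between genotypes. They were sorted by structure into 11 fibrillar genes, 6 basement membrane genes (type IV) and 27 of other types, of which 10, 4 and 18 were compared. A normalized read is the number of reads counted for a gene divided by a size factor of the library.

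The first pharyngeal arch is the outgrowth that forms the jaws. PolyA-selected RNA of arches from embryos of 25 to 27 somites (E9.5-E9.75) was sequenced in 2 wild-type and 2 transgenic libraries, whose values are given in the order 1, 2 within each genotype. In the transgenic group, Cre under Wnt1 control acts in the neural crest lineage and switches on a Bmp4 transgene. Embryos with Wnt1-Cre but no pMes-Bmp4, or the reverse, were not analysed here, so the effect of Bmp4 cannot be told apart from that of the transgenes or the genetic background. The libraries held 29607541 to 47849092 reads assigned to genes. Bmp4 itself read 681.7 and 437.1 in the wild-type pair and 2656 and 1745 in the transgenic pair, 3.93-fold higher (limma adjusted p = 0.0211). The labels do not say that libraries came from separate embryos or litters, so p-values measure the spread between these samples, which may be technical. In RNA of a whole arch, fewer cells of a type and less RNA per cell cannot be told apart.

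Collagens are secreted or membrane proteins in which chains wind into a triple helix. The helix needs a glycine in each triplet of residues, because only glycine is small enough to sit at its axis. Fibrillar collagens pack into the banded fibrils of connective tissue, and type IV chains form the sheet-like network of basement membranes under epithelia and around vessels. In the arch, mesenchyme, epithelium and endothelium all make collagen, and cartilage collagens come into use when the jaw skeleton forms later.

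The glycine repeat that defines the family can be read in the gene models. Exons of the 5 genes that fell between genotypes are shown in coding direction, 5′ to 3′. They were picked by hand, without a break in the repeat for the fibrillar genes and with a break for the others. They illustrate how fibrillar, basement membrane and membrane-bound collagens can differ. In each, codons that begin with gg, which code for glycine, are in capitals. The sequences and positions come from GENCODE M21 (GRCm38, which is mm10).

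Col3a1 exon 39 (chr1:45340866-45341027, plus strand): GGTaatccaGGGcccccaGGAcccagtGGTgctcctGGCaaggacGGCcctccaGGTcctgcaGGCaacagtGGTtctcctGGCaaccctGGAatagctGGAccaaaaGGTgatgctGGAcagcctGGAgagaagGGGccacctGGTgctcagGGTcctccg
Col27a1 exon 37 (chr4:63309522-63309629, plus strand): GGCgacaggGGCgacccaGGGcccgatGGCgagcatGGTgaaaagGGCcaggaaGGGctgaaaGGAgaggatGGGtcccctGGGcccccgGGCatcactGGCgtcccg
Col4a1 exon 9 (chr8:11244486-11244569, minus strand): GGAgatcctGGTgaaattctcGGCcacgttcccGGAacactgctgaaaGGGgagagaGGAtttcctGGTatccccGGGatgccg
Col4a1 exon 12 (chr8:11242173-11242214, minus strand): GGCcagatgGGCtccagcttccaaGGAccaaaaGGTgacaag
Col4a2 exon 12 (chr8:11406813-11406854, plus strand): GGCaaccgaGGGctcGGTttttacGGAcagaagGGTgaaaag
Col23a1 exon 13 (chr11:51563000-51563053, plus strand): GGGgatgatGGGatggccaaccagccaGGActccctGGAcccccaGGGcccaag

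The 162 bases of Col3a1 exon 39 hold 18 glycine codons, and the 108 bases of Col27a1 exon 37 hold 12, each spaced by 3 codons without a break. Exon 9 of Col4a1 has 8 glycine codons, and 3 of its 7 spacings differ from 3 codons. Exon 12 of Col4a1 and of Col4a2 both span 42 bases, and both break the repeat once, at a spacing of 5 codons in Col4a1 and of 2 codons in Col4a2. Exon 13 of Col23a1 departs from the repeat once, at a spacing of 6 codons.

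Over whole coding sequences, the longest unbroken run was 216 to 344 triplets in the 11 fibrillar genes, and at least 337 in 9 of them. It was 39 to 66 triplets in the 6 type IV genes and 23 to 113 in the 27 others. Col3a1 had the longest run, 344 triplets, while Col27a1 and Col24a1 had the shortest of the fibrillar class, 217 and 216. Type IV coding sequences were split into 22 to 27 runs of at least 5 triplets, and fibrillar ones into 2 to 3. Such runs held 75.4% to 80.0% of codons in type IV genes, 53.5% to 77.2% in fibrillar genes and 69.4% in Col23a1. Fibrillar genes also had 21 to 33 coding exons of exactly 54 bases, which hold 6 triplets each, against 1 to 3 in type IV genes. Among the other types the count went from 0 to 28, and the highest was in Col22a1.

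**Figure D1:**
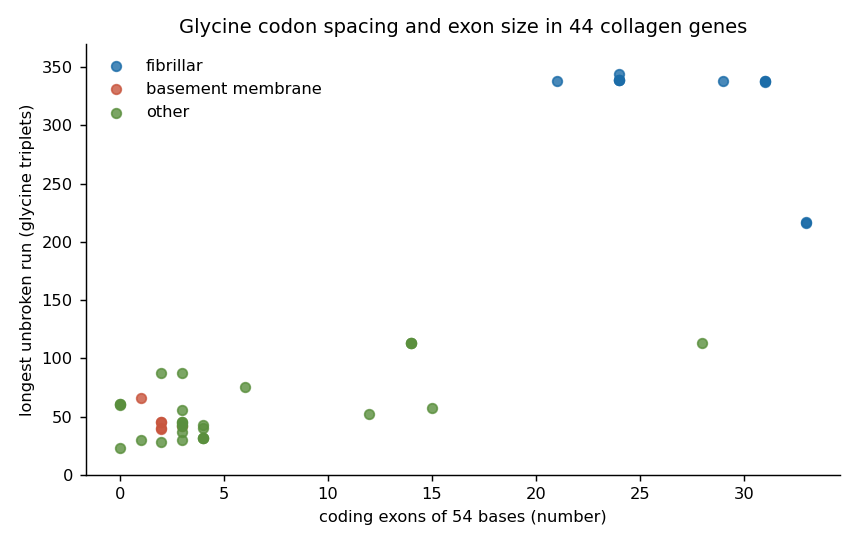
Longest unbroken run of glycine triplets (vertical axis, number of triplets) against the number of coding exons of 54 bases (horizontal axis) in 44 collagen genes, coloured by type; each point is a gene, and points can coincide. The 11 fibrillar genes have runs of 216 to 344, above all other collagens, which reach 113, and 21 to 33 such exons, a range that Col22a1 enters with 28.

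In wild-type arches, collagen RNA came mostly from a few chains. Levels of different genes were compared only per length, as normalized reads per kb of the longest transcript. By this measure the 10 highest genes were Col3a1, Col2a1, Col23a1, Col9a1, Col18a1, Col26a1, Col1a2, Col4a1, Col4a2 and Col5a2. Together they made up 90.4% and 90.2% of the summed collagen level per kb in the wild-type libraries and 89.3% and 89.7% in the Wnt1-Cre;pMes-Bmp4 libraries. The list holds 4 fibrillar genes, 2 type IV genes and 4 of other types. Fibrillar genes made up 44.9% and 45.6% of the summed level per kb in wild-type, type IV genes 14.4% and 13.8%, and the others 40.8% and 40.6%.

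The order within the top 10 was only partly resolved. Col3a1, the fibrillar collagen of soft and distensible tissue, stood at 728 and 935.4 normalized reads per kb in wild-type 1 and 2. Col2a1, the main fibrillar collagen of cartilage, stood at 589 and 786.5, and the wild-type values of these 2 genes overlapped. The fibril-associated chain Col9a1, a partner of type II collagen, read 477.3 and 484.5 per kb. Col18a1, a basement membrane zone collagen whose end fragment is endostatin, read 458.8 and 480.9 per kb. Col23a1, a collagen with a transmembrane segment, spanned both at 417.9 and 620.4 per kb. Col26a1 read 325.9 and 471.2 per kb, and Col1a2, a chain of type I collagen, 358.8 and 420.4. Of the 9 pairs of neighbours in this order, 2 did not overlap between wild-type libraries, namely Col4a1 over Col4a2 and Col4a2 over Col5a2.

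Markers of cartilage, notochord and otic tissue, in which type II and type IX collagen are also made, were read at 14.5 normalized reads or less in all libraries, apart from Sox9. The cartilage proteoglycan gene Acan read at most 4.27 normalized reads in any library, and the cartilage matrix gene Matn1 at most 9.7. The notochord gene T had 0 reads in all 4 libraries, and Noto at most 4.27. Oc90, an otic marker, read at most 14.5. Sox9, which activates Col2a1 in cartilage and is also made in crest mesenchyme, read 3174 and 4424 in the wild-type pair and 2843 and 1860 in the transgenic pair. Sox9, Col2a1 and Col9a1 were lowest in Wnt1-Cre;pMes-Bmp4 2, as were 26 of the 32 collagens compared and 31.5% of all genes tested. Sox9 did not pass between genotypes (log2 fold change -0.70 ± 0.24 SE, limma adjusted p = 0.106).

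**Figure D2:**
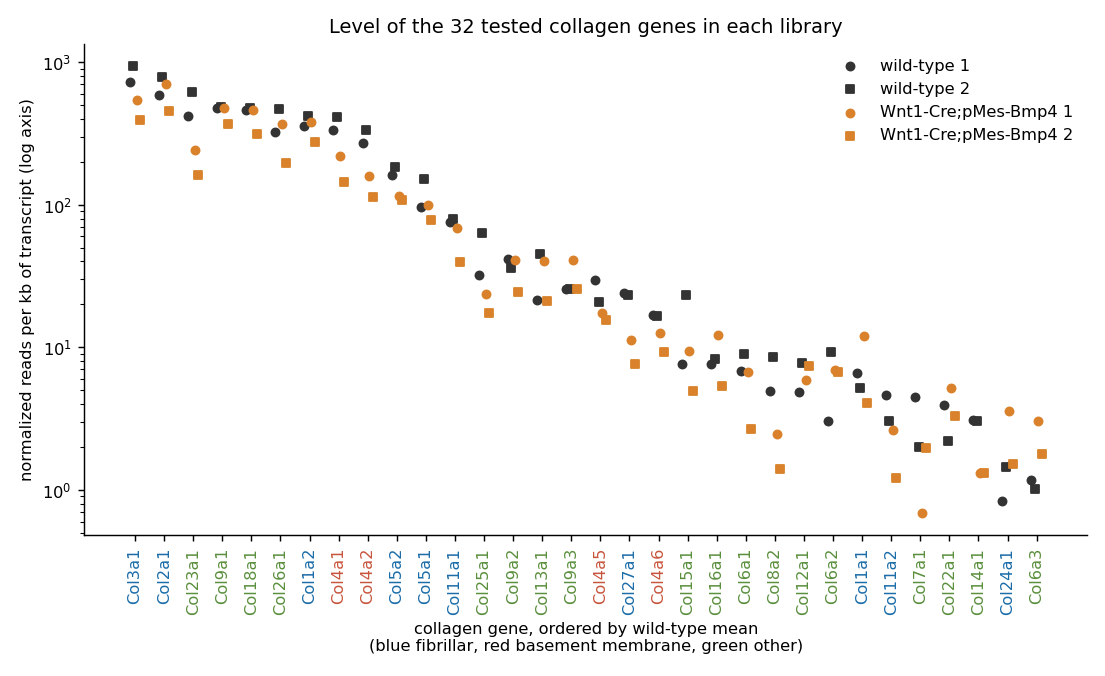
Level of the 32 tested collagen genes (vertical axis, normalized reads per kb of the longest transcript, log axis) in the 2 wild-type libraries (black) and the 2 Wnt1-Cre;pMes-Bmp4 libraries (orange), ordered by wild-type mean. Levels fall from a wild-type mean of 831.7 per kb for Col3a1 to 1.1 per kb for Col6a3, and the orange square of Wnt1-Cre;pMes-Bmp4 2 is the lowest of the 4 points in 26 genes.

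At the low end, 14 of the 32 genes compared had a wild-type mean under 100 normalized reads. The 12 genes not compared had means below 10. The limit fell between Col24a1 and Col14a1 just inside, at means of 13.2 and 14.1, and Col6a6 and Col28a1 just outside, at 9.71 and 9.43. No collagen gene was without reads in all 4 libraries, and 6 of the 12 had a library at 0, which allows up to 3 reads. The type IV chains Col4a3 and Col4a4, known from the kidney filter, read 10.4 and 8.23, and 10.4 and 5.14, in wild-type. Col5a3, Col6a4, Col6a5, Col8a1, Col10a1, Col17a1, Col19a1 and Col20a1 read between 0 and 11.1 in any library, and Col28a1 between 1.21 and 18.5. Col10a1, which marks the enlarged chondrocytes of growing bone, had 0 and 5 reads in the wild-type pair and 2 and 1 in the transgenic pair.

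Between the genotypes, 5 of the 32 collagen genes compared were lower in the transgenic libraries and 0 were higher at a limma adjusted p under 0.05. The 5 were the basement membrane chains Col4a1 and Col4a2, the fibrillar Col3a1 and Col27a1, and the transmembrane Col23a1. Their levels fell by 1.78-fold to 2.56-fold. Among all 16746 genes tested, 5.28% were called lower and 2.97% higher, 8.25% in all. The edgeR quasi-likelihood test on recovered reads also called 0 collagens higher and 6 lower, against 5.46% of all genes lower. DESeq2 called 0 higher and 7 lower of the 22 collagens to which it gave an adjusted p, against 12.3% of all genes lower. At an unadjusted p under 0.05 limma gave 0 collagens higher and 8 lower, against 13.4% and 15.3% of all genes.

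The calls depended on which libraries were kept. Without wild-type replicate 1 or without wild-type replicate 2, 0 collagen genes passed in limma, and 0 and 1 of all 16746 genes did, so these fits lost nearly every call in the table. At an unadjusted p under 0.05 they held 10 and 5 collagens, against 19.0% and 10.8% of all genes. Without Wnt1-Cre;pMes-Bmp4 replicate 1 or replicate 2, 15 and 8 collagens were lower in limma, against 16.2% and 11.4% of all genes. In these fits the lone library of a group is assumed to vary like the other group.

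Col4a1 and Col4a2 encode the chains of the ubiquitous type IV network. Col4a2 read 1754 and 2155 in the wild-type pair and 1023 and 729.9 in the transgenic pair. Both transgenic libraries lay under both wild-type libraries, and the mean was 2.23-fold lower (log2 fold change -1.17 ± 0.20 SE, limma adjusted p = 0.0268). Col4a1 read 2215 and 2707 in the wild-type pair and 1449 and 956.6 in the transgenic pair. Its groups did not overlap either, and it was 2.05-fold lower (log2 fold change -1.06 ± 0.22 SE, limma adjusted p = 0.0357). The 2 genes lie head to head on chromosome 8, Col4a1 at chr8:11198423-11312826 on the minus strand and Col4a2 at chr8:11312805-11449287 on the plus strand. Their annotated 5′ ends overlap by 22 bases. No source states that reads were counted by strand, so reads of those bases could not be assigned with certainty. Together the 2 chains made up 13.3% and 13.1% of the collagen level per kb in the wild-type pair and 9.21% and 9.15% in the transgenic pair. This share differed less between the libraries of a group than between the groups.

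The X-linked pair Col4a5 and Col4a6, whose chains join a second type IV network, lay at a lower level. Col4a5 read 194.3 and 136.8 in the wild-type pair and 114.1 and 101.8 in the transgenic pair. Col4a6 read 112 and 110.1 in the wild-type pair and 83.2 and 61.8 in the transgenic pair. In both genes the groups did not overlap, but neither passed, with log2 fold changes of -0.59 ± 0.28 and -0.62 ± 0.30 (SE) and limma adjusted p values of 0.212 and 0.219. They too lie head to head, with 1308 bases between them. All 4 type IV genes compared thus had both transgenic libraries under both wild-type libraries, as did 29.7% of all genes tested. Their median log2 fold change was -0.84, against 0.02 for all genes tested. All 4 have transcripts of 5004 bases or more. Of all genes tested with such transcripts, 59.9% had both transgenic libraries lower, and the median log2 fold change was -0.41. After a correction for transcript length the median of the 4 was -0.44.

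Markers of epithelium and endothelium, which make basement membrane, were summed beside these values. The 6 epithelium markers were Epcam, Cdh1, Krt8, Krt18, Trp63 and Cldn6. They summed to 24003 and 18199 in the wild-type pair and 32623 and 30598 in the transgenic pair. All 6 had a positive log2 fold change, and 1 of the 6, Krt18, passed as higher, against 2.97% of all genes tested. Krt8 and Cldn6 were also higher at an unadjusted limma p under 0.05, against 13.4% of all genes. The 6 endothelium markers were Pecam1, Cdh5, Kdr, Tek, Emcn and Tie1. They summed to 3279 and 3219 in the wild-type pair and 3956 and 4401 in the transgenic pair. In limma 0 of the 6 passed, with 3 higher at an unadjusted p under 0.05, against 13.4% of all genes. Kdr and Cdh5 were at log2 fold changes of -0.05 and -0.06, and without Emcn the other 5 summed to 1866 and 1908 in the wild-type pair and 2109 and 2117 in the transgenic pair. No marker of these 2 lists was at 0. The 4 mesenchyme markers Prrx1, Prrx2, Pdgfra and Twist1 summed to 15171 and 18134 in the wild-type pair and 23520 and 18589 in the transgenic pair, and Prrx2 passed as higher. Without Prrx2 the other 3 summed to 8507 and 11139 in the wild-type pair and 7768 and 6778 in the transgenic pair. Prrx1, Pdgfra and Twist1 were at log2 fold changes of -0.28, -0.33 and -0.68, and none of the 3 passed. Of 5 erythroid markers 2 passed as lower, against 5.28% of all genes tested. The 5 summed to 503450 and 461702 in the wild-type pair and 249239 and 260385 in the transgenic pair. The part of these cell types in the collagen values was not tested.

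Among the fibrillar genes, 2 of 10 compared were lower, 0 higher, and 8 did not pass. Col3a1, at chr1:45311538-45349706, read 4051 and 5204 in the wild-type pair and 3001 and 2196 in the transgenic pair. Its groups did not overlap, and it was 1.78-fold lower (log2 fold change -0.84 ± 0.19 SE, limma adjusted p = 0.0454). Col27a1, a fibrillar collagen of developing cartilage with a shortened helix, lies at chr4:63214004-63334991. It read 184 and 177.9 in the wild-type pair and 85.3 and 58.2 in the transgenic pair. The wild-type libraries were close to each other and well above both transgenic libraries, and the mean was 2.52-fold lower (log2 fold change -1.35 ± 0.29 SE, limma adjusted p = 0.0397).

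The type V chains, which control how fibrils start and how thick they grow, did not pass. Col5a2 lies next to Col3a1 on chromosome 1, tail to tail with 24614 bases between them. It read 1064 and 1228 in the wild-type pair and 760.4 and 714.1 in the transgenic pair, with no overlap, and just missed the threshold (log2 fold change -0.63 ± 0.15 SE, limma adjusted p = 0.0509). With edgeR on recovered reads it was called lower (edgeR adjusted p = 0.0455). Col5a1 read 810 and 1274 in the wild-type pair and 831.9 and 652.3 in the transgenic pair, so that its groups overlapped (limma adjusted p = 0.254).

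The cartilage chains Col2a1 and Col11a1 did not pass either. Col2a1 read 3006 and 4014 in the wild-type pair and 3581 and 2307 in the transgenic pair, with overlap and a log2 fold change of -0.27 ± 0.23 (SE). Col11a1 read 576.3 and 614 in the wild-type pair and 523.7 and 301.9 in the transgenic pair, without overlap, at a log2 fold change of -0.58 ± 0.27 (SE, limma adjusted p = 0.202). The lower fibrillar genes Col11a2 and Col24a1 had log2 fold changes of -1.01 ± 0.62 and 1.01 ± 0.70 (SE), from at most 38 and 24 reads in a library, and did not pass.

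Type I collagen, the main fibril of bone and skin, was read mainly from Col1a2. Col1a2 read 1919 and 2248 in the wild-type pair and 2036 and 1484 in the transgenic pair. Col1a1 read 39.3 and 30.9 in the wild-type pair and 71.5 and 24.2 in the transgenic pair, from 53, 30, 67 and 20 reads. The aligner and the treatment of reads that map to several places are not stated, so whether counting lowered the Col1a1 value could not be checked. Per kb, Col1a2 exceeded Col1a1 by 54.1-fold and 80.8-fold in the wild-type pair and 31.6-fold and 67.9-fold in the transgenic pair, although the common form of the protein holds more chains of Col1a1 than of Col1a2. Both genes overlapped between the groups and did not pass, with limma adjusted p values of 0.397 for Col1a2 and 0.794 for Col1a1. Using the mean length of a gene's transcripts, the wild-type ratio was 47.3 in place of 67.5.

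Other pairs of chains that assemble together were less unequal than Col1a2 and Col1a1 in wild-type. Col4a2 to Col4a1 per kb was 0.812 and 0.816 in the wild-type pair and 0.724 and 0.783 in the transgenic pair. Col5a2 to Col5a1 was 1.67 and 1.22 in the wild-type pair and 1.16 and 1.39 in the transgenic pair. In type IX collagen, where the chains join in equal number, Col9a2 and Col9a3 stood at 0.0872 and 0.0748, and at 0.0536 and 0.053, of the level of Col9a1 in wild-type. In Wnt1-Cre;pMes-Bmp4 they stood at 0.0858 and 0.0665, and at 0.0861 and 0.0693. In type XI, Col11a2 stood at 0.062 and 0.0382 of Col11a1 in the wild-type pair and 0.0387 and 0.0305 in the transgenic pair. Among the 9 pairs compared, 4 had ratios that did not overlap between the groups. Col4a2 to Col4a1 was lower in the transgenic libraries, and Col6a2 to Col6a1, Col6a3 to Col6a1 and Col9a3 to Col9a1 were higher. Of single genes tested, 29.7% had both transgenic libraries lower and 30.0% had both higher. The ratios to Col6a1 rest on few reads, 38, 36, 26 and 9 for Col6a1 and 16, 10, 29 and 15 for Col6a3. With 2 libraries a group an exact permutation test cannot give a two-sided p below 0.333, and the ratios were not tested.

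**Figure D3:**
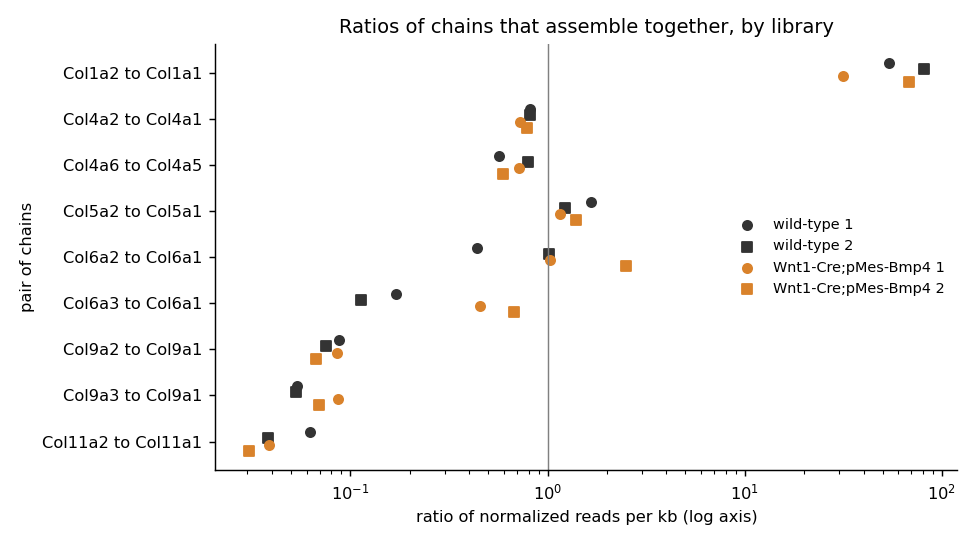
Ratio of normalized reads per kb (horizontal axis, log axis) for 9 pairs of chains that assemble together, in each of the 2 wild-type libraries (black) and 2 Wnt1-Cre;pMes-Bmp4 libraries (orange). Col1a2 to Col1a1 lies between 31.6 and 80.8 in all libraries, Col4a2 to Col4a1 between 0.724 and 0.816, and the type IX and type XI pairs below 0.1.

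Among the 18 other collagens compared, Col23a1 alone passed. Col23a1, at chr11:51289920-51583918, read 2365 and 3510 in the wild-type pair and 1379 and 914.2 in the transgenic pair. Both transgenic libraries lay under both wild-type libraries, and the mean was 2.56-fold lower (log2 fold change -1.36 ± 0.25 SE, limma adjusted p = 0.0293). Col25a1, another transmembrane collagen, known from amyloid plaques and from the innervation of muscle, read 216.6 and 423.8 in the wild-type pair and 158.9 and 116.4 in the transgenic pair. It did not overlap between the groups and did not pass (log2 fold change -1.15 ± 0.35 SE, limma adjusted p = 0.0835). Col13a1, also transmembrane, read 67.5 and 141.9 in the wild-type pair and 128 and 66.7 in the transgenic pair, so that the groups overlapped.

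Of the remaining types none passed. Col18a1 read 2567 and 2691 in the wild-type pair and 2566 and 1744 in the transgenic pair, so that 1 transgenic library was close to wild-type and the other was lower. Col9a1 had the same form, at 1830 and 1858 against 1825 and 1410. Col26a1 read 906.4 and 1310 in the wild-type pair and 1024 and 544.4 in the transgenic pair, with overlap. These 3 had limma adjusted p values of 0.327, 0.45 and 0.293. Col8a2, a short-chain collagen of the membrane under the corneal endothelium, was at a log2 fold change of -1.69 ± 0.61 (SE), from 29, 36, 10 and 5 reads, and did not pass (limma adjusted p = 0.121). Col14a1, a fibril-associated collagen, read 20 and 19.5 in the wild-type pair and 8.53 and 8.49 in the transgenic pair, from 27, 19, 8 and 7 reads (limma adjusted p = 0.242). Col8a2 and Col14a1 reached the minimum level through their wild-type libraries, with transgenic means of 8.36 and 8.51. Col12a1, Col16a1, Col22a1, Col9a3 and Col6a2 had positive log2 fold changes between 0.02 and 0.47, and Col9a2, Col15a1, Col6a1 and Col7a1 negative ones between -0.29 and -1.27. The groups overlapped in 7 of these 9 genes, against 6757 of all 16746 genes tested, and none of the 9 passed.

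**Figure D4:**
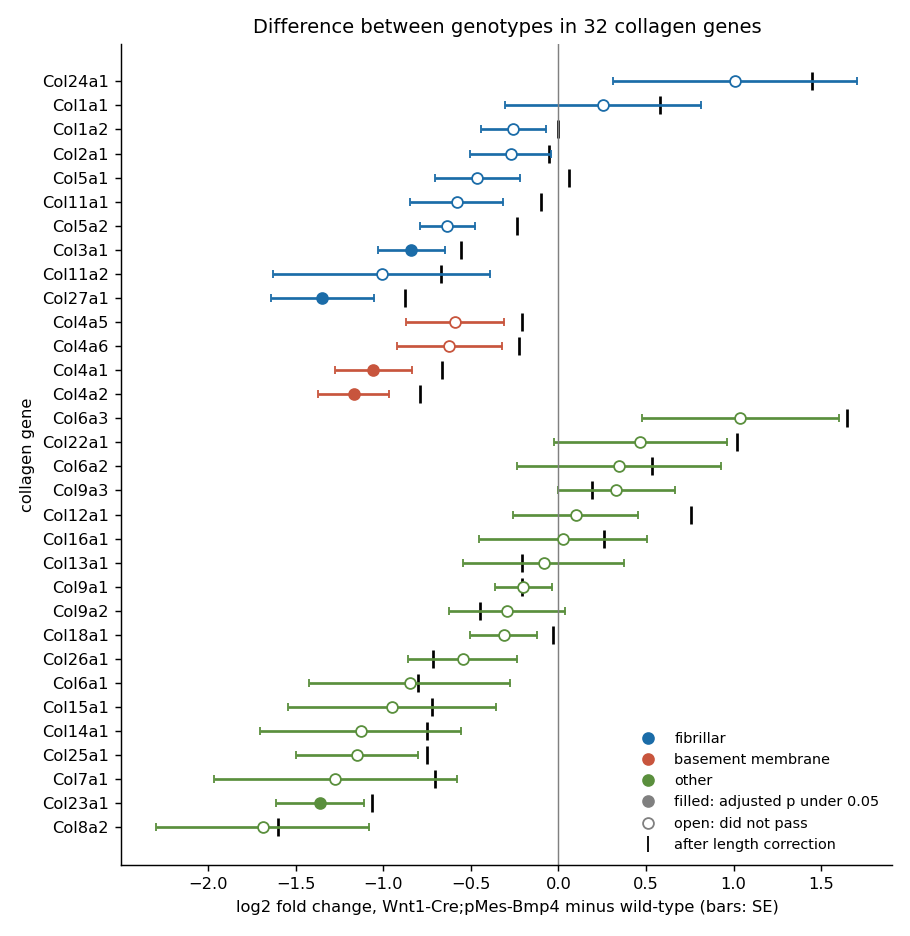
Log2 fold change, Wnt1-Cre;pMes-Bmp4 minus wild-type, of the 32 collagen genes compared, with its SE (circles and bars, limma), by type; filled circles passed at an adjusted p under 0.05 and black ticks give the value after correction for transcript length. The 5 filled circles lie between -0.84 and -1.36, and their ticks between -0.56 and -1.07.

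Taken by type, the median log2 fold change was -0.52 for the 10 fibrillar genes, -0.84 for the 4 type IV genes and -0.30 for the 18 others. Of the 32 genes 24 had a negative value, against 48.7% of all genes tested. In 17 both transgenic libraries lay under both wild-type libraries and in 2 over them, against 29.7% and 30.0% of all genes tested. The 17 include genes where this rests on close values in wild-type 1 and Wnt1-Cre;pMes-Bmp4 1. Col18a1 read 2567 and 2566 in these libraries, and Col9a1 1830 and 1825. Among all genes with transcripts of 5004 bases or more, which include 24 of the 32, the share with both transgenic libraries lower was 59.9%. Of the 21 genes whose mean reached 50, 19 had a negative value, and of the 11 with a lower mean, 5. Both genes with the transgenic libraries higher, Col24a1 and Col6a3, were low, and Col24a1, at a wild-type mean of 8.11, reached the minimum level through its transgenic libraries.

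Collagen transcripts are long, with a median of 5989 bases against 3056 for all genes tested, and length itself went with the difference between genotypes. Of the 32 genes, 24 were among the 3245 genes of the longest length class, the top 20% with transcripts of 5004 bases or more. In that class the median log2 fold change of all genes was -0.41, 17.3% were called lower, and 76.6% had a negative value. The 24 collagens in it had a median of -0.61, 5 were called lower, and 18 had a negative value. The called share of collagens was thus near that of other long genes. After a correction of each library for transcript length, 0 collagens passed in limma, with 9 at an unadjusted p under 0.05 against 23.7% of all genes, and the median of the 32 was -0.22. By then 0.998% of all genes were called lower. The log2 fold changes became -1.07 for Col23a1, -0.87 for Col27a1, -0.79 for Col4a2, -0.66 for Col4a1 and -0.56 for Col3a1, with limma adjusted p values of 0.0584, 0.127, 0.0638, 0.104 and 0.116. Col5a1, Col1a2, Col2a1, Col18a1 and Col11a1 then lay between -0.10 and 0.06. With GC content corrected as well, Col23a1 and Col4a1 passed as lower, against 4.58% of all genes.

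**Figure D5:**
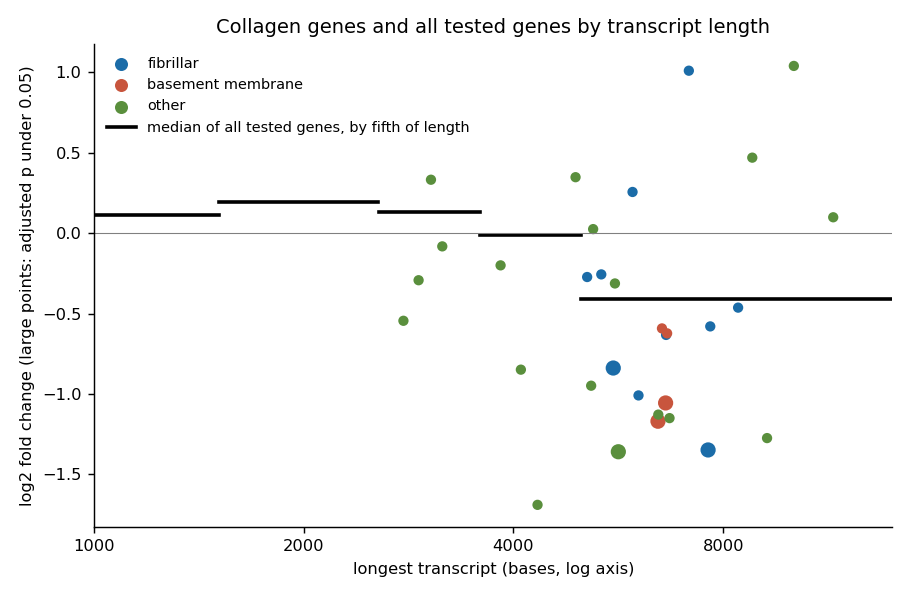
Log2 fold change (vertical axis) against the length of the longest transcript (horizontal axis, bases, log axis) for the 32 collagen genes compared, coloured by type, with larger points for the 5 that passed; black bars give the median of all tested genes in each of 5 length classes of equal size, cut at the edges of the plot. The bar of the longest class lies at -0.41, and the 5 larger points lie below it, between -0.84 and -1.36.

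The libraries of a group also differed from each other in collagen level. Wnt1-Cre;pMes-Bmp4 2 was under Wnt1-Cre;pMes-Bmp4 1 in 30 of the 32 genes, against 50.4% of all genes tested, with a median log2 difference of -0.60. It was the lowest of the 4 libraries in 26 genes, against 31.5% of all genes tested. Wild-type 2 was over wild-type 1 in 22 genes, with a median difference of 0.22. In the longest class of all genes these 2 medians were -0.07 and 0.11. Summed collagen per kb was 4560 and 5683 in the wild-type pair and 4101 and 2816 in the transgenic pair, and collagen reads were 0.069% and 0.0879% of all reads against 0.0638% and 0.0414%. The median log2 fold change of the 32 genes was -0.67 without Wnt1-Cre;pMes-Bmp4 replicate 1 and -0.20 without replicate 2. All 5 genes that passed were lower in Wnt1-Cre;pMes-Bmp4 2 than in 1.

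Of 38 genes that fold, modify, trim and crosslink collagen, 37 were in the table and 33 were tested. Among them 2 were higher, 2 lower and 29 did not pass, against 8.25% called among all genes tested, and the median log2 fold change was 0.08. At an unadjusted limma p under 0.05, 7 were higher and 5 lower, against 13.4% and 15.3% of all genes. Pcolce2, an enhancer of procollagen trimming, read 236.6 and 189.2 in the wild-type pair and 387.1 and 403.7 in the transgenic pair, 1.86-fold higher (log2 fold change 0.90 ± 0.21 SE, limma adjusted p = 0.0458). Sec23a, a coat protein of the vesicles that carry procollagen out of the endoplasmic reticulum, read 1032 and 799.2 in the wild-type pair and 1500 and 1512 in the transgenic pair, 1.64-fold higher (limma adjusted p = 0.0452). Creb3l2, a transcription factor that activates Sec23a in chondrocytes, was lower instead, at 531.8 and 721 in wild-type against 321 and 312.8 (limma adjusted p = 0.0379). Pxdn, the peroxidase that crosslinks type IV collagen, read 2091 and 2215 in the wild-type pair and 1544 and 1313 in the transgenic pair, 1.51-fold lower (log2 fold change -0.60 ± 0.14 SE, limma adjusted p = 0.0499). In these 4 genes the groups did not overlap. Both transgenic libraries were lower in 7 and higher in 11 of the 33 genes, against 29.7% and 30.0% of all genes tested. For the collagen chaperone Serpinh1 the log2 fold change was -0.03 ± 0.18 (SE), and for the prolyl hydroxylase subunit P4ha1 it was -0.03 ± 0.13 (SE). The subunits P4hb, P4ha2 and P4ha3 were at 0.46 ± 0.12, 0.56 ± 0.17 and -0.52 ± 0.75 (SE), and none of them passed.

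Of 24 genes of collagen receptors and collagen breakdown, 18 were tested in limma. Among them 2 were higher, 0 lower and 16 did not pass, against 8.25% called among all genes tested, and the median log2 fold change was 0.19. At an unadjusted p under 0.05, 4 were higher and 4 lower, against 13.4% and 15.3% of all genes. Mmp14, a membrane-bound protease that cuts fibrillar collagen, read 1063 and 1038 in the wild-type pair and 1939 and 1574 in the transgenic pair, 1.67-fold higher (log2 fold change 0.73 ± 0.16 SE, limma adjusted p = 0.038). Pepd, which recycles proline from collagen peptides, read 2231 and 1963 in the wild-type pair and 3066 and 3149 in the transgenic pair, 1.48-fold higher (limma adjusted p = 0.0466). The collagen receptor Itgb1 was at a log2 fold change of 0.29 ± 0.12 and Ddr2 at -0.48 ± 0.20 (SE), and neither passed. After the length correction none of the 6 genes passed, with limma adjusted p values of 0.0589 to 0.399. The log2 fold changes of Pcolce2, Sec23a, Creb3l2, Pxdn, Mmp14 and Pepd were then 1.01, 0.78, -0.53, -0.20, 0.62 and 0.36.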

How the data were processed

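Reads were counted per gene with featureCounts, per the file headers, and the deposited values are a normalized signal, those counts divided by a size factor for each library. Per the submitters' processing notes, fastp 0.21.0 and mm10 were used. The aligner, annotation, strand setting and normalizing tool were not given in the sources used here. When values were divided by the lowest non-zero value of their library, 100% were whole within 0.01, which gives the reads. The members and lists were chosen with earlier results of these data known.

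The main test was limma 3.58.1 (R 4.3.3) with a trend, on log2(value + 1), over 16746 genes whose mean reached 10. It was two-sided, with Benjamini-Hochberg adjustment over all genes tested and a threshold of 0.05. Fold changes on this log2 scale understate low genes. The fit had 2 residual and 5.26 prior degrees of freedom. Longest transcripts, coding sequences and positions came from GENCODE M21 (GRCm38), with a length for 96.9% of genes tested. The length correction subtracted, per library, a spline with 4 degrees of freedom on log2 length, estimated from genes whose mean reached 50. Named were all collagens past the threshold, the 2 with the smallest p per type, the 10 highest per kb, and the list members past the threshold; other genes were named after their values were seen. Simulated data held 200 changed genes among 16746, and the results are means of 3 draws. Without a simulated length trend, limma found 42.3% of the 2-fold changes, 77% of the 4-fold changes and 1.67 wrong genes. With such a trend and the length correction, it found 47.2%, 77.2% and 6.67 wrong genes among 16225. The main test, which has no such correction, was not simulated with a length trend. edgeR 4.0.16 and DESeq2 1.42.0 were run on recovered reads; over all genes edgeR called 409 higher and 915 lower. Figures used matplotlib 3.10.9.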

Additional observations from a re-analysis of the deposited data

How the results depend on the processing

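The count of collagens called higher was 0 in every alternative run, among them other pseudocounts, filters, scalings and thresholds, edgeR and DESeq2 on recovered reads, each library left out and both length corrections. The count called lower, 5 as reported, was 0 in limma without the trend, where 0 of all 16746 genes passed (11 collagens and 23.4% of all genes at an unadjusted p under 0.05). It was 0 after the length correction, 2 after the length and GC correction, and 0 to 15 with a library left out. The median log2 fold change of the collagens tested, -0.56, was -0.22 after the length correction, -0.13 after the length and GC correction and -0.67 to -0.20 with a library left out. Of the synthesis and crosslinking list, 4 genes were called as reported. That count was 0 in limma without the trend, where 0 of all genes passed. It was 0 after the length correction, where 107 of all 16225 genes were called higher and 162 lower. It was 9 in DESeq2, which called 1284 of 12850 genes higher and 1582 lower. At an adjusted p under 0.1 it was 10, for which the share of all genes is not given here. The count also moved with a library left out. Of the receptor and breakdown list, 2 were called as reported. That count was 0 in limma without the trend and after the length correction, 1 with TMM scaling, quantile scaling, edgeR or the length and GC correction, and 0 to 8 with a library left out. The cause was not tested.

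With the replicate number as a block, limma called 4 collagens lower, without Col3a1 (adjusted p = 0.0547), against 3.24% of all genes. It called 0 genes of either list, and of all 16746 genes 165 higher and 543 lower. The replicate numbers share no stated source. Differences between libraries 1 and 2 of each group correlated at -0.147 across genes tested and at -0.266 across those whose mean reached 50. With the replicate numbers crossed, an alternative added after seeing the data, 9 collagens were lower, against 11.7% of all genes. That fit called 9 genes of the synthesis list and 6 of the receptor list. Of all 16746 genes it called 1763 higher and 1952 lower. With the mean transcript length, 10 of the 10 highest genes in wild-type were shared with those reported. The wild-type Col1a2 to Col1a1 ratio moved from 67.5 to 47.3 and that of Col11a2 to Col11a1 from 0.0501 to 0.0299.

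The direction of genes that had not passed turned in some fits. After the length correction Col5a1 was at 0.062. After the length and GC correction Col2a1, Col18a1, Col1a2, Col5a1, Col9a2 and Col13a1 were at 0.44, 0.37, 0.12, 0.31, 0.048 and 0.046. With a library left out, the log2 fold change ranged in Col2a1 from -0.59 to 0.0439, in Col9a2 from -0.659 to 0.0728, in Col13a1 from -0.613 to 0.448, in Col9a3 from -0.0078 to 0.671, in Col16a1 from -0.56 to 0.609, in Col12a1 from -0.231 to 0.427, in Col6a2 from -0.426 to 1.12 and in Col1a1 from -0.505 to 1.02. Genes with under 100 reads a library limit what can be resolved.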

Other observations

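Low chains of type VI collagen, the beaded filament around cells, were read too thinly for most comparisons. Col6a3 had 16 and 10 reads in the wild-type pair and 29 and 15 in the transgenic pair. Col6a4 had 4 and 0 against 5 and 5, Col6a5 0 and 0 against 10 and 5, and Col6a6 9 and 6 against 13 and 10. In normalized reads both transgenic libraries lay over both wild-type libraries in these 4 genes, which were chosen after their values were seen, as they did in 30.0% of all genes tested. Of the 4, Col6a3 alone was tested and did not pass (log2 fold change 1.04 ± 0.56 SE, limma adjusted p = 0.27). Col6a4, Col6a5 and Col6a6 lie next to each other on chromosome 9, on the same strand. Col6a1 went the other way, at 38 and 36 reads against 26 and 9, and Col6a2 had 20 and 44 against 32 and 27. Col8a1, a partner of Col8a2, had 4 and 10 reads in the wild-type pair and 0 and 0 in the transgenic pair, where 0 allows up to 3 reads in each library.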
